A study of Drosophila melanogaster with 3 samples.

Results

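The 48 protein-coding genes of Drosophila melanogaster whose symbol is Vps, Sec or Exo followed by a digit encode much of the machinery that moves proteins between membrane compartments. They were taken from 13945 protein-coding genes on the 6 main chromosome arms, by a rule on the symbol that uses no measured value, although the set was proposed with earlier results of these data known. For each gene, the peaks at its transcription start, the genes that shared that start region and the signal in each replicate were recorded. The peaks come from chromatin immunoprecipitation followed by sequencing (ChIP-seq) of Doc3, a T-box transcription factor of the Dorsocross locus, in whole embryos of 0 to 24 hours. The flies were transgenic for Doc3 fused to eGFP, a green fluorescent protein, and an anti-GFP antibody was used for the pull-down. All 3 biological replicates form 1 group, with no untreated, mock or input sample analysed here, so no group comparison was possible, and the signal pools all cell types of the embryo. The promoter or cell type that drives the fusion is not given in the labels.

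Secretory proteins enter the endoplasmic reticulum through the Sec61 translocon and leave it in vesicles coated by COPII. Tethering complexes then hold a vesicle at its target membrane before SNARE proteins, helped by Sec1/Munc18 (SM) proteins, fuse the membranes. The exocyst tethers secretory vesicles at the plasma membrane, HOPS and CORVET act on late and early endosomes, and GARP and EARP receive or recycle endosomal cargo. Retromer returns cargo from endosomes, and ESCRT complexes bud vesicles into the endosome on the way to the lysosome. Most of these genes are used in all cells. Many lie head to head with another gene, so that 1 stretch of DNA serves as the promoter of both.

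Of the 48 genes, 25 (52.1%, 95% Wilson interval 38.3 to 65.5%) had a summit of the conservative peak list within 500 bp of an annotated start, against 2980 of 13945 coding genes (21.4%, interval 20.7 to 22.1%). The conservative list is the series-level set of 2793 peaks that the authors marked as such. Which replicates it compares or pools is not stated, so a gene can be in it without being in a replicate's own thresholded list. All 25 genes had different summits, so no peak was counted for more than 1 of them. The separate thresholded lists of the replicates gave 23 of the 48 genes in replicate 1 (47.9%), against 15.9% of coding genes. Replicate 2 gave 25 (52.1%), against 19.8% of coding genes, and replicate 3 gave 25 (52.1%), against 15.6%. The share in the Vps, Sec and Exo genes was thus above the share of all coding genes in each list, and the intervals did not overlap in any of the 4. Intervals cover counting error over genes only, and the lists of 1 series are not independent of each other. Where a summit was given only to the coding gene with the nearest start, the count was 16 (33.3%), against 15.7% of coding genes. Where at least 50% of the peak and of the thresholded peak of every replicate had to overlap, it was 15 (31.2%), against 8.50% of coding genes.

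**Figure D1:**
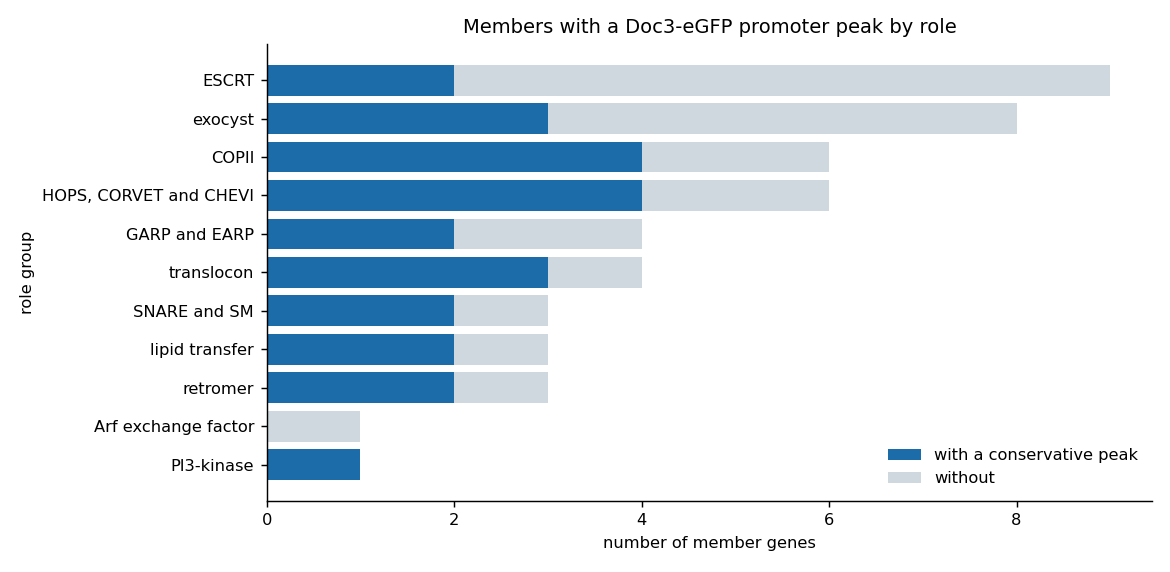
Number of genes with a conservative promoter peak (blue) and without one (grey) in each of 11 role groups, of which ESCRT is the largest with 9 genes. The peak was present in 4 of 6 COPII genes and in 2 of 9 ESCRT genes.

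The DNA at some of these starts is shown first, since the peaks differ in what lies under them. Capitals mark each TATCGA or its reverse complement, and the full palindrome TATCGATA is the core of the DNA replication-related element (DRE), which the factor DREF binds. The sequences are from the RefSeq Release 6 genome (dm6), read 5′ to 3′ on the coding strand of the Vps or Sec gene, and each ends at the base before its start. Vps16A (chr3R:9266905-9267018, plus strand) and Vps39 (chr3R:18274447-18274664, minus strand) are shown as divergent promoters with a peak and the full DRE core. Sec20 (chr3R:5824533-5824614, minus strand) is the shortest shared stretch at a gene with a peak, and Vps15 (chr3R:9245870-9246019, minus strand) is a strong peak at a gene with no neighbouring start. Vps36 (chr3L:13513113-13513253, minus strand) and Sec3 (chr3L:17425218-17425476, minus strand) are strong peaks with no such match between the starts. The last 3 had no conservative peak, with the full core in Vps53 (chr2L:4386063-4386181, minus strand), the short form in Vps60 (chr3L:17621626-17621823, minus strand) and no match in Sec71 (chr2L:13793371-13793520, plus strand).
Vps16A to TrpRS: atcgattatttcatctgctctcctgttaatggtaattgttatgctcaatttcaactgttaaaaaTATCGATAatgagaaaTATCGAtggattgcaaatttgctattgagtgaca
Vps39 to eIF1A: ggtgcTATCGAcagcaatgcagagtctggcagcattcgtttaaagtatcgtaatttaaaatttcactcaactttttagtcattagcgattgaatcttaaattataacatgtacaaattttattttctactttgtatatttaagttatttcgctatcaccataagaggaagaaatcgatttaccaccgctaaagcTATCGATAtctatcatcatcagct
Sec20 to dgrn: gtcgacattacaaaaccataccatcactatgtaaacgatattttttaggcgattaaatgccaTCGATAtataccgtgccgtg
Vps15 upstream: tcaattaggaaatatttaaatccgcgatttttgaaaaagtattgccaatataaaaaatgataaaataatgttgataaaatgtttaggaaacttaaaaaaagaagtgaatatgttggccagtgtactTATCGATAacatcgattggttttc
Vps36 to Liprin-beta: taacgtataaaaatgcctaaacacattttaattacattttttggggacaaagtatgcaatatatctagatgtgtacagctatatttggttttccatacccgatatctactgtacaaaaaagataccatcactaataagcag
Sec3 to COX7B: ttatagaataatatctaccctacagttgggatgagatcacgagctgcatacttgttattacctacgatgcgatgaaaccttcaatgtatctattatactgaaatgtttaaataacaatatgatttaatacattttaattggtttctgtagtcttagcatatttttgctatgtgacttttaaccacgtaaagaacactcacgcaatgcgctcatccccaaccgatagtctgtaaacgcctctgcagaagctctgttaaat
Vps53 upstream: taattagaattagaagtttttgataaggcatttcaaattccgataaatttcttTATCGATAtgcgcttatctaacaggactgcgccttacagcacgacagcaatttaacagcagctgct
Vps60 to anchor: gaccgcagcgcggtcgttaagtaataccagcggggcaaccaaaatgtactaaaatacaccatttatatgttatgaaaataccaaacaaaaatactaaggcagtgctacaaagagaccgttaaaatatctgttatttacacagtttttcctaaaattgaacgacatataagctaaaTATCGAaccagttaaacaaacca
Sec71 upstream: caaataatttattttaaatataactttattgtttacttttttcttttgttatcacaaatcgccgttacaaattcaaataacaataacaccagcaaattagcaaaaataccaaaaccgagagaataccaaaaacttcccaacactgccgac

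The conservative summit fell at base 51 of the 114 bases between Vps16A and TrpRS, at base 113 of the 218 between Vps39 and eIF1A, and at base 31 of the 82 between Sec20 and dgrn. It fell at base 126 of the 259 bases between Sec3 and COX7B. In Vps36 the summit lay 9 bp inside Liprin-beta, in that gene's 5′ UTR, and the 1 DRE core of the promoter window lay a further 92 bp from it in the same UTR. Strong peaks thus occurred with and without a match in the printed stretch. In Vps15 the conservative summit lay 69 bp upstream of the core, at -89 bp from the start (negative is upstream). The summits in replicates 1, 2 and 3 lay farther from the core, at -141, -170 and -145 bp from the start.

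The strongest peak belonged to Vps36, a subunit of ESCRT-II, the complex that links cargo recognition to membrane budding. Its peak at chr3L:13513061-13513421 had a conservative signal of 750 and rank 46 of 2793. The authors' signal measures the strength of a region, but its scale is unstated and changes from list to list, so replicates are compared below by the gene's percentile among all 13945 coding genes. Vps36 had signals of 171, 288 and 280 in replicates 1, 2 and 3, with percentiles of 99.7, 99.2 and 99.5. The start of Liprin-beta, a gene for a scaffold protein, lies 142 bp away in divergent orientation and is nearer to the summit than the start of Vps36. Of the 9 ESCRT genes, the only other with a peak was Vps24 of ESCRT-III (chr3R:4310662-4311145, signal 145, rank 1623). Its conservative summit, the midpoint of a 484 bp peak, lay in its own 5′ UTR. In replicates 1, 2 and 3 its summits were at 3, -5 and -22 bp from the start (negative is upstream). Vps24 had signals of 39.6, 58.3 and 70.2 in replicates 1, 2 and 3 and percentiles of 87.1, 80.9 and 87.6, so it was among the weaker peaks in each. The ESCRT genes without a peak were Vps28 and Vps37B of ESCRT-I, Vps25 of ESCRT-II, Vps2, Vps20 and Vps60 of ESCRT-III and the ATPase gene Vps4, which disassembles ESCRT-III. The group's share of 22.2% (interval 6.32 to 54.7%) was close to that of all coding genes.

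Of the 4 translocon genes, 3 had a peak, and Sec61alpha and Sec61beta were among the 5 strongest of the 25. Sec61alpha, which encodes the pore of the channel, had a peak at chr2L:6480587-6481065 with signal 639 and rank 97. Its signals were 106, 260 and 253 in replicates 1, 2 and 3, with percentiles of 97.9, 98.6 and 99.3. The summit lay 284 bp upstream of its start and 70 bp from that of Daxx, a gene for a histone chaperone, within a long non-coding RNA exon. Sec61beta, a small channel subunit, had signal 558 and a summit 92 bp upstream of a start that no other coding gene shares. Sec63, a co-chaperone of the translocon, had signal 226, and its start is shared with pst. Its conservative summit, 93 bp downstream in its 5′ UTR, is only the midpoint of a 484 bp peak. In replicates 1, 2 and 3 its summits were at -5, 14 and 19 bp from the start (negative is upstream). The third channel subunit, Sec61gamma, had no peak. Its only region was in replicate 1, with signal 18.0 and percentile 74.4.

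Among the COPII genes, the peaks were at Sec23 (signal 498), Sec24CD (365), Sec13 (323) and Sec24AB (226). Sec23 and both Sec24 genes encode the inner coat, which selects cargo, and Sec13 encodes an outer coat subunit. Sec31, the partner of Sec13 in the outer coat, had no peak, with percentiles of 65.7, 46.9 and 63.2 in replicates 1, 2 and 3. Sec16, the scaffold of endoplasmic reticulum exit sites, had none in the conservative list and was thresholded in replicate 1 alone. Its strongest ranked region in that replicate had signal 10.3 and percentile 59.0. The start of Sec23 is shared with MTA1-like and that of Sec13 with ATPsynCF6, a subunit of the mitochondrial ATP synthase. The Sec13 summit lay 2 bp from the start of ATPsynCF6 and 212 bp from that of Sec13. Sec24AB was not thresholded in replicate 1.

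Of the 8 exocyst genes, 3 had a peak. Sec3 was the strongest (chr3L:17425209-17425484, signal 570, rank 158), with signals of 123, 216 and 211 and percentiles of 98.8, 97.7 and 98.4 in replicates 1, 2 and 3. Sec8 (signal 231) had its summit 28 bp upstream of its start, inside an intron of CG2082. Sec15, which encodes the subunit that binds Rab11 on vesicles, had the weakest peak of all 25 (chr3R:21107668-21108151, signal 119, rank 1871). Its signals were 36.3, 40.2 and 48.1 in replicates 1, 2 and 3, with percentiles of 86.1, 73.5 and 82.7, and it was the 1 gene of the 25 that no replicate's thresholded list held. Exocyst genes without a conservative peak were Sec5, Sec6, Sec10, Exo70 and Exo84, of which Sec6 was thresholded in replicate 3.

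The tethers of endosomes and lysosomes had peaks in 4 of 6 genes. Vps16A, a core subunit that HOPS and CORVET share, had a peak at chr3R:9266824-9267106 with signal 597 and rank 126. Its signals were 116, 257 and 220 in replicates 1, 2 and 3, with percentiles of 98.3, 98.5 and 98.8. Its start lies 115 bp from that of TrpRS, the gene for tryptophanyl-tRNA synthetase. Vps39, a HOPS-specific subunit, had signal 338 at a start shared with the translation initiation gene eIF1A. Vps8, a CORVET-specific subunit, had signal 287 at a start shared with sfl, and Vps33B, an SM protein of the CHEVI complex, had signal 217 at one shared with Fur1. Vps11, which encodes a HOPS subunit, had no region within 500 bp of its start in any replicate. Vps16B, the CHEVI partner of Vps33B, was thresholded in replicate 2 alone.

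GARP and EARP share Vps51, Vps52 and Vps53, and Vps50 belongs to EARP. Vps52 had signal 181 at a start shared with Elp4, a subunit of Elongator, with the summit in the 5′ UTR of Elp4, and was not thresholded in replicate 1. Vps51 (chr2R:18710664-18711147, signal 163, rank 1465) had signals of 48.7, 105 and 51.2 in replicates 1, 2 and 3, with percentiles of 89.4, 90.0 and 83.6. It was not thresholded in replicate 3. Vps50 had no conservative peak, yet its percentiles were 83.8, 85.9 and 85.6 in replicates 1, 2 and 3. The lowest of the 25 genes with a peak had 83.9, 73.5 and 82.7 there, so Vps50 lay just below their range in replicate 1 and within it in replicates 2 and 3. It was thresholded in replicates 1 and 3, and the longest list of the series (3513 peaks) held it with signal 181. Vps53 had no peak in any thresholded list.

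Of the remaining genes, Vps15 had the highest signal (494). It encodes the regulatory subunit of the Vps34 PI3-kinase. The SNARE gene Sec20 (435) shares its start with dgrn, and the SM gene Vps45 (421) shares its start with CG9393. The SNARE gene Sec22 had no peak. Of the Vps13 family of lipid transfer proteins, Vps13D (386, start shared with CG10973) and Vps13B (341, start shared with the translation initiation gene eIF2Balpha) had peaks, and Vps13 had none. Of the retromer genes, Vps29 (308, start shared with the TFIIH gene Tfb4) and Vps35 (224, not thresholded in replicate 1) had peaks, and Vps26 had none. Sec71, an Arf exchange factor of the Golgi, had no region in any replicate. In no role group of 3 or more genes did every gene have a peak. The exocyst, retromer and the Sec61 channel each had subunits with a peak and subunits without.

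**Figure D2:**
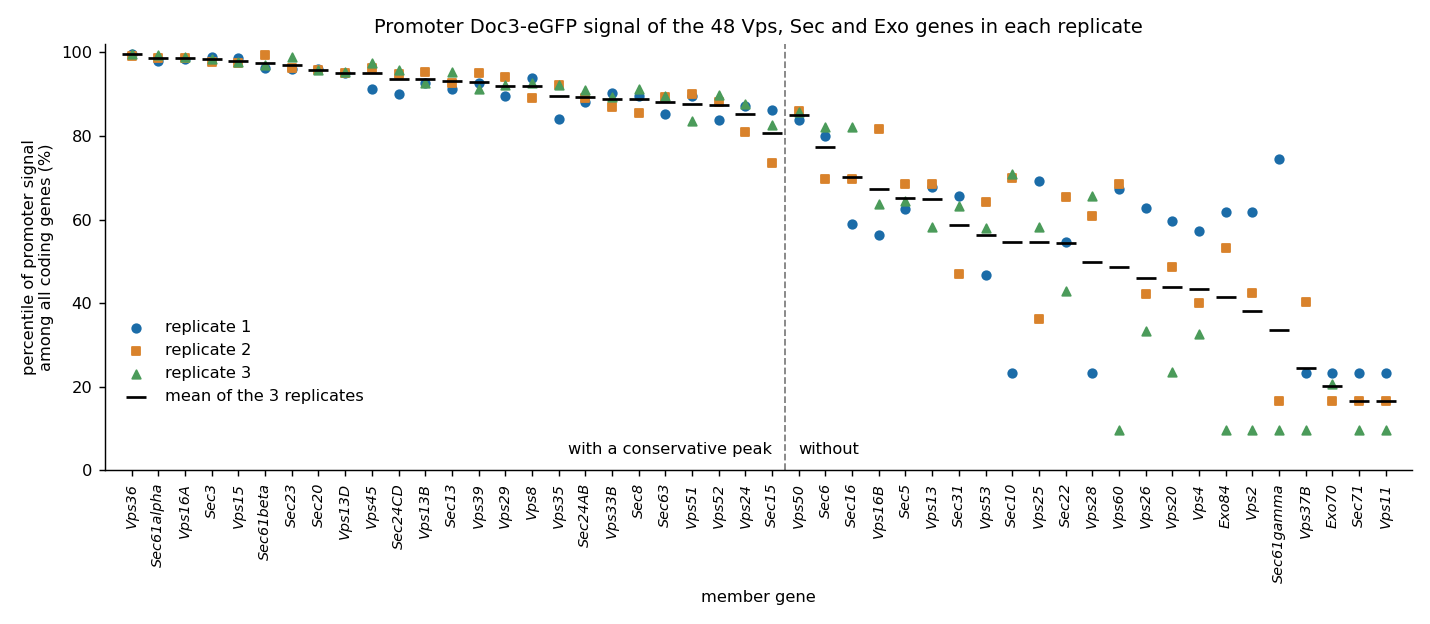
Percentile of the promoter signal among all 13945 coding genes (vertical axis) for each of the 48 genes, in replicate 1 (circles), 2 (squares) and 3 (triangles), with the mean as a bar. Genes with a conservative peak stand left of the dashed line, and genes without any region share the tied percentiles 23.3, 16.6 and 9.75 in replicates 1, 2 and 3. The 25 genes with a peak had mean percentiles of 80.8 to 99.5, and the 23 without had 16.6 to 85.1.

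The 25 peaks were stronger than those of coding genes with a peak in general, as a description. Their median signal was 338 (119 to 750), against 227 (2.10 to 1793) over 2980 coding genes with a peak. Of the 25, 22 (88.0%, interval 70.0 to 95.8%) had a peak in the stronger 1396 of the list, against 65.2% of coding genes with a peak. All 3 thresholded replicate lists held 20 of the 25 (80.0%, interval 60.9 to 91.1%), against 57.8% of coding genes with a peak. More than 1 conservative peak lay within 500 bp of the start in 10 of the 25 (40.0%, interval 23.4 to 59.3%), against 24.0%. That last interval took in the value of coding genes.

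The replicates ranked the genes with a peak alike. The 25 genes with a peak had median percentiles of 91.3, 94.7 and 92.7 in replicates 1, 2 and 3, against 89.0 in each for coding genes with a peak. The 23 genes without a peak had 59.5, 53.1 and 43.0. The SD of a gene's percentile over the 3 replicates had a median of 1.84 in the genes with a peak and 12.6 in those without. The 12.6 is not replicate disagreement alone, since genes with no region take the tied percentiles 23.3, 16.6 and 9.75. Of the 23, 10 lacked a region in at least 1 replicate, and none of the 25 did. Sec71 and Vps11, with no region in any replicate, still had an SD of 6.80. Spearman's rho of signal across the 25 genes reached 0.838 between replicates 1 and 2, 0.855 between 1 and 3, and 0.896 between 2 and 3. Across coding genes with a peak the values were 0.855, 0.843 and 0.883. These are correlations across genes, which are not independent replicates. The conservative list was derived from the same samples, so the percentiles do not test it.

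Some genes without a conservative peak still had a region in the replicates. Of the 23, 13 had a region within 500 bp of the start in the ranked list of every replicate. Of these 23, 4 (Vps50, Sec6, Sec16 and Vps16B) were thresholded in at least 1. The same counts were not made over coding genes. The median percentiles of the 23, at 59.5, 53.1 and 43.0 in replicates 1, 2 and 3, were near the middle of all coding genes. Over all 48, a ranked region was present in 42, 44 and 41 genes in replicates 1, 2 and 3 (87.5, 91.7 and 85.4%), against 53.3, 66.8 and 80.5% of coding genes. In replicate 3 the interval of 72.8 to 92.8% took in the value of coding genes. The ranked lists held 30159, 59389 and 141211 regions, so they differ in how weak a region they keep. Exo84 and Vps2 start 564 bp apart and drew on the same region in 1 replicate, so they are not separate observations there. The farthest summits inside it lay 330 bp from the start of Vps33B and 301 bp from that of Vps52, and the nearest outside lay 1137 bp from Vps53 and 1139 bp from Vps13.

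A start of another coding gene lay within 500 bp of the own start in 27 of the 48 genes (56.2%, interval 42.3 to 69.3%), against 30.9% of coding genes. All 27 neighbours were divergent, an arrangement that 25.3% of coding genes had. Among genes with a shared start, 17 of the 27 Vps, Sec and Exo genes had a peak (63.0%, interval 44.2 to 78.5%), against 42.1% of such coding genes. Among genes with no shared start, 8 of 21 had a peak (38.1%, interval 20.8 to 59.1%), against 12.1%. The share was above that of coding genes on both sides of the split. The interval left out the coding-gene value where no start was shared. For shared starts it left out the 42.1% by little, but that value covers neighbours of every orientation. Of 3527 coding genes with a shared divergent start, 1583 had a peak, a share just inside the interval of 44.2 to 78.5%. Of the genes with a peak, 17 of 25 had a shared start (68.0%, interval 48.4 to 82.8%), against 60.9% of coding genes with a peak. Of those without a peak, 10 of 23 did (43.5%, interval 25.6 to 63.2%), against 22.7%.

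**Figure D3:**
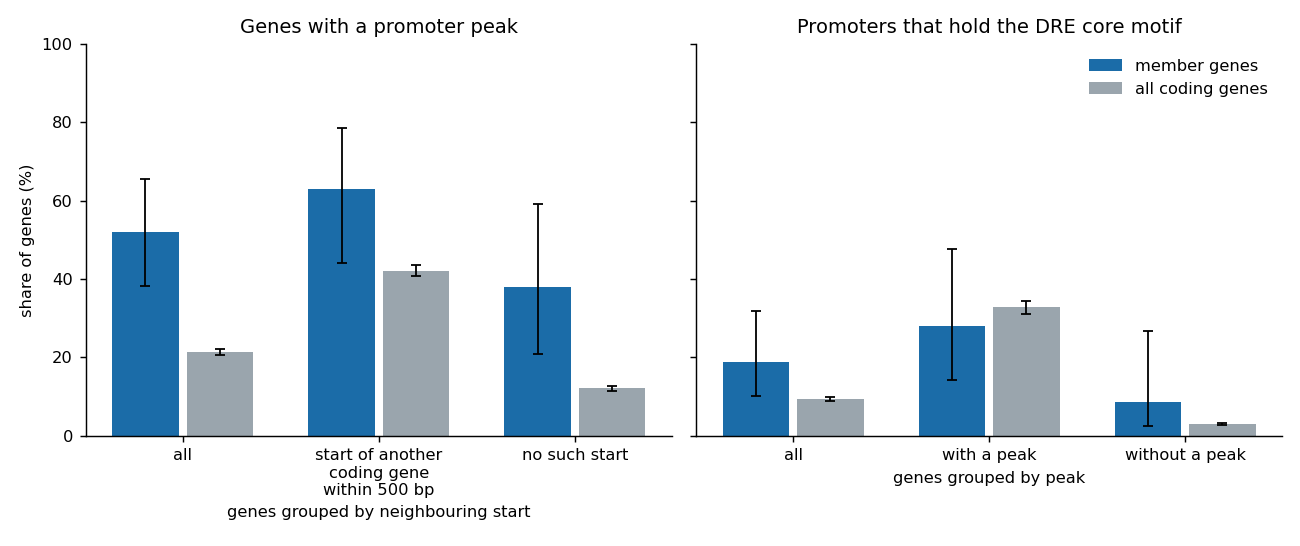
Share of genes (%) with a conservative promoter peak by neighbouring start (left), and share of promoters with the DRE core TATCGATA by peak (right), for the 48 member genes (blue) and all coding genes (grey). Error bars are 95% Wilson intervals, which cover counting error only. With a shared start, 63.0% of member genes and 42.1% of coding genes had a peak, and without one 38.1% of member genes and 12.1% of coding genes.

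The 17 genes with a peak and a shared start were Sec3, Sec13, Sec15, Sec20, Sec23, Sec61alpha, Sec63, Vps8, Vps13B, Vps13D, Vps16A, Vps29, Vps33B, Vps36, Vps39, Vps45 and Vps52. The gap between the divergent starts ran from 83 bp at Sec20 to 474 bp at Sec15, whose neighbour is rtet, with a median of 251 bp, against 243 bp for divergent coding genes with a peak. In 13 of the 17 the summit fell between the starts, a share that was not counted over divergent coding genes with a peak. The exceptions were Sec15 and Sec63, with summits inside their own 5′ UTRs, and Vps36 and Vps52, with summits inside the 5′ UTR of the neighbour. At Sec15 and Sec63 the summit is the midpoint of a 484 bp peak, as it is at Vps8, Vps29 and Vps33B among the 13. The next share was likewise not counted over coding genes. Taking only the strongest peak of each gene, the own start was nearest to the summit, or tied, in 14 of the 25. For the other 11 that peak lay closer to Liprin-beta, Daxx, TrpRS, COX7B, dgrn, CG9393, CG10973, eIF2Balpha, ATPsynCF6, Fur1 or Elp4. Vps16A and Vps13B each had another peak nearest to their own start, so they are among the 16 genes of the nearest-gene count. At these starts the peak cannot be assigned to 1 of the genes.

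**Figure D4:**
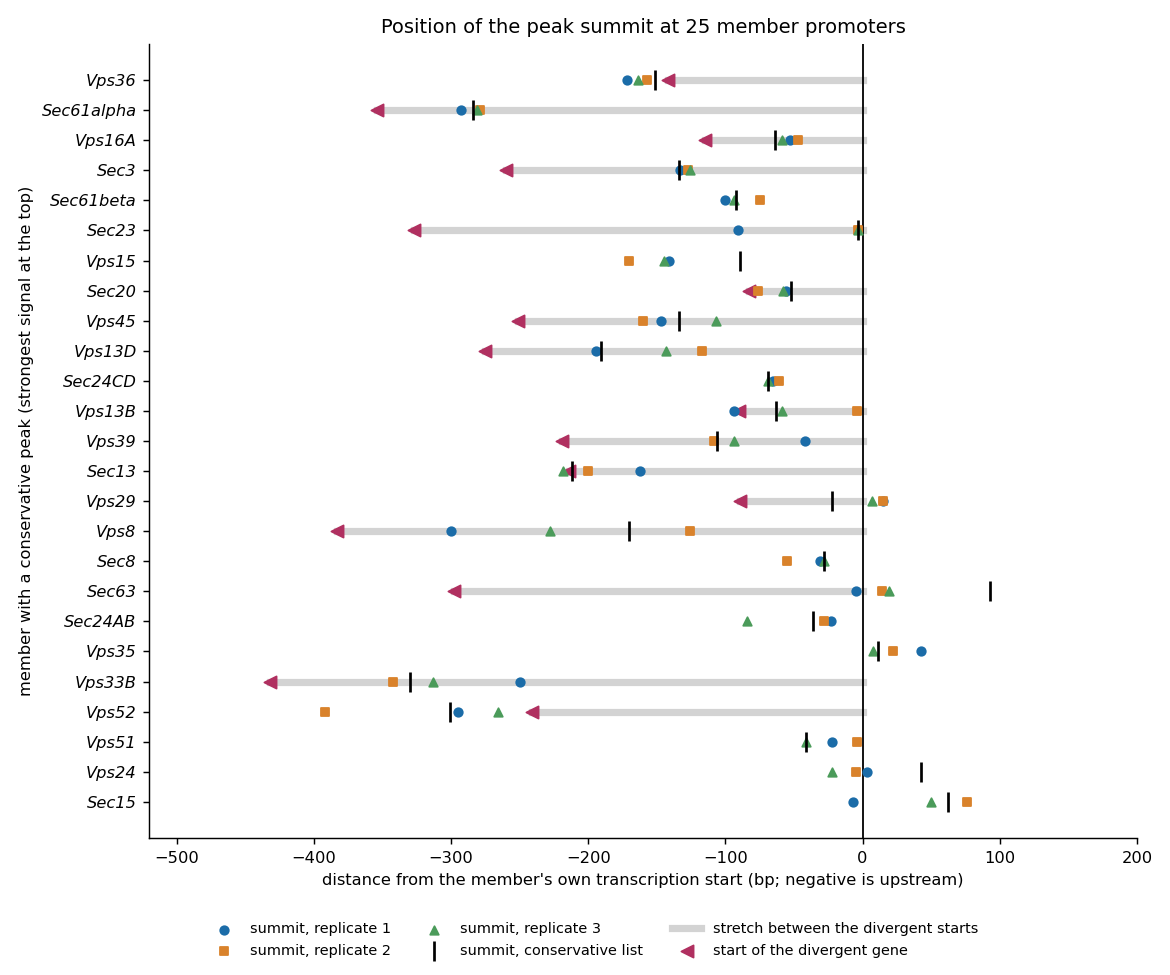
Position of the summit relative to the own start (horizontal axis, bp, negative upstream) for the 25 genes with a conservative peak, from the strongest signal down, in the conservative list (bar) and in replicates 1, 2 and 3 (coloured points). Triangles mark the start of a divergent coding gene within 500 bp of the summit, which 16 of the 25 had, and grey bars the stretch between the starts. In 21 of 25 genes the conservative summit lay upstream of the own start.

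Summits lay upstream of the own start in 21 of 25 genes (84.0%), against 83.1% of coding genes with a peak, at a median distance of 89 bp (3 to 330), against 85 bp. By annotation, 15 of the 25 summits were intergenic, 6 lay in a 5′ UTR, 3 in exons of non-coding genes and 1 in an intron. The annotation of summits was not counted over coding genes. Over the 3 replicates, the position of the strongest region's summit ranged over a median of 35 bp (7 to 174), against 49 bp for coding genes with a peak. Of the 2793 conservative peaks, 1984 were 484 bp wide and 1985 had the summit at base offset 242, so for these the summit is the midpoint and its position is less exact. Such peaks were at Sec8, Sec15, Sec24AB, Sec63, Vps8, Vps24, Vps29, Vps33B, Vps35 and Vps51. These include all 4 genes with a summit downstream of the start, so the counts by side and by annotation are less exact there. In distance and side of the start, the peaks of these genes were therefore like those of other genes.

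By chromosome arm, the peaks were at 12 of 17 genes on 3R (70.6%), 5 of 8 on 3L, 4 of 7 on 2L, 4 of 11 on 2R and 0 of 5 on X. The shares of coding genes were 21.9% on 3R, 19.6% on 3L, 20.0% on 2L, 20.5% on 2R and 25.9% on X. The interval for 3R was 46.9 to 86.7%. The 5 genes on X were Sec16, Sec22, Sec61gamma, Vps4 and Vps26. A count of 0 of 5 has a Wilson interval of 0 to 43.4%. A rougher limit of 3 counts of the total would be 60.0%, which is loose for so few genes. The interval for X took in the 25.9% of coding genes there. The difference between arms was not tested.

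The DRE core TATCGATA was sought on both strands from 250 bp upstream to 50 bp downstream of the start, with 6 further motifs. It was in 9 of 48 promoters (18.8%, interval 10.2 to 31.9%), against 9.36% of coding promoters. With a peak, 7 of 25 held it (28.0%, interval 14.3 to 47.6%), against 32.8% of coding promoters with a peak. Those 7 were Vps36, Vps15, Vps16A, Vps39, Sec63, Sec24AB and Vps51, the last with 2 copies. Without a peak, 2 of 23 held it (8.70%), against 2.98%. Those 2 were Sec6, with the core 192 bp upstream of the start, and Vps53, with the core 62 bp upstream as printed above. Within 250 bp of the conservative summit, 9 of 25 genes had a copy (36.0%), at a median distance of 69.0 bp (17 to 191), against 40.6% of coding genes with a peak, at 43.0 bp.

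The shorter TATCGA, which is part of TATCGATA and was added after the data were seen, was in 17 of the 25 promoters with a peak (68.0%) and in 6 of the 23 without (26.1%). The same shares over coding promoters were 68.9% and 16.5%. For both spellings, the interval at the 25 genes with a peak (48.4 to 82.8% for TATCGA) took in the value of coding promoters with a peak. Promoters without TATCGATA had a peak in 18 of 39 genes (46.2%, interval 31.6 to 61.4%), against 15.8% of coding genes. Promoters with it had one in 7 of 9 (77.8%), against 74.9%.

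The T-box core GGTGTGA was in 0 of the 25 promoters with a peak, with a Wilson interval of 0 to 13.3% and a limit of 12.0% from 3 counts of the total, and in 3 of the 23 without (13.0%). Over coding promoters the shares were 3.72% with a peak and 2.64% without. No match says only that these letters were not in the window. The core promoter element GGTCACACT (Motif 1) was in 2 of 25 promoters with a peak and 4 of 23 without, against 9.30% and 5.16% of coding promoters. The E-box CAGCTG was in 17 of 48 promoters (35.4%, interval 23.4 to 49.6%), against 17.7% of coding promoters, with 10 of 25 at genes with a peak (40.0%) and 7 of 23 at genes without (30.4%). Over coding promoters the shares were 23.2% with a peak and 16.2% without. GAGAG, the core of GAGA factor sites, was in 6 of 48 (12.5%, interval 5.86 to 24.7%), against 29.7%. TATAAA was in 26 of 48 (54.2%), against 45.8%.

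Other genes of the same pathways, taken from a list of 80 symbols of which 79 were found and from all symbols Rab followed by a digit, had a peak in 45 of 110 (40.9%, interval 32.2 to 50.3%), against the 21.4% of all coding genes. The strongest were Rab19, which encodes a Rab GTPase, with signal 681, the SNARE gene Ykt6 (657), Srp14 of the signal recognition particle (638) and Syx5 (622), a SNARE of Golgi traffic. By group, peaks were at 15 of 28 SNARE and SM genes, 15 of 31 Rab symbols and 8 of 21 tether genes. They were also at 3 of 9 coat genes, 3 of 8 signal recognition genes and 1 of 5 retromer and PI3-kinase partners. The Rab symbols include Rab3-GAP, which is not itself a GTPase. None of the 8 further ESCRT genes (Hrs, Stam, TSG101, lsn, shrb, Chmp1, CHMP2B and ALiX) had a peak, beside 2 of the 9 ESCRT genes described above.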

How the data were processed

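Anti-GFP ChIP-seq of Doc3-eGFP embryos gave 3 biological replicates of 1 group. Per the labels the build is dm6. Chromatin fragments were of 200 to 800, per the labels. The authors deposited a ranked and a thresholded peak list for each replicate and 4 thresholded series-level lists, of which the one marked conservative was the main one. The deposited signal value (column 7) is on an unstated scale and was compared only within a list. The aligner is not given in the sources used here, nor is the peak caller. The lists hold no read numbers, so sequencing depth is unknown.

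Peaks were joined to Ensembl release 115 genes (annotation 6.54) with Python 3.11.15, numpy 2.4.6 and scipy 1.17.1, and figures were drawn with matplotlib 3.10.9. A gene had a peak when a summit lay within 500 bp of any annotated start, and its strongest peak gave its signal. Genes with no region share the lowest percentile. Shares carry 95% Wilson intervals. The joins and motif searches were tested on simulated data. Members, lists and role groups were chosen with earlier results of these data known. With 1 group and no control, no test was made. All members are named, with values in every replicate for the 3 strongest and 3 weakest peaks, and also, chosen after their values were seen, for Sec3, Sec31, Sec61gamma and Vps50. Alternatives were other distances, lists, overlap rules and motif windows, and overlap with the thresholded lists of only 2 replicates at a time. That last setting only removes conservative peaks, so it does not show what the list would be without a replicate.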

Additional observations from a re-analysis of the deposited data

How the results depend on the processing

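The 25 genes with a peak stayed between 22 and 28 with summits within 250 or 1000 bp, with whole peaks within 500 bp, with the 5′-most start, with each of the 3 other series-level lists and with the stronger part of the list. Giving each summit only to the nearest gene left 16, and a 50% overlap with every replicate's thresholded peak left 15. Coding genes with a peak were 1944 in the stronger part of the list (13.9%), 1756 when all 3 thresholded lists had to overlap (12.6%) and 1185 at 50% overlap (8.50%), against 2980. Requiring overlap in the thresholded lists of only 2 replicates at a time gave 20 to 23 of the 48 genes (41.7 to 47.9%), and 1818 to 1995 coding genes (13.0 to 14.3%). In that comparison the coding count was 1955 without replicate 1 and 1818 without replicate 2. With genes that had no region left out, the median percentile of the 48 genes was 74.9, 79.7 and 87.2 in replicates 1, 2 and 3, against 84.0, 83.6 and 84.6. The shorter motif, added after the data were seen, raised the promoters with a match to 23. Genes with a start of another gene near the summit numbered 14 to 20, against 16, over the other distances and lists. Starts shared within 250 bp were found in 27.1% of the 48 genes and 18.3% of coding genes, and within 1000 bp in 66.7 and 42.9%, distances added after the data were seen. No paired analysis was possible because all replicates belong to 1 group. Depth is unknown and no control was analysed here, so weak promoters such as Sec15 and Vps50 rest on the lists' thresholds alone.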
